A study of Mus musculus with 3 samples.

Results

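Angptl4 and 8 other genes of lipid handling that are known targets of the peroxisome proliferator-activated receptors (PPARs) were followed in cultured adult cardiomyocytes (ACMs). The 9 genes were taken by symbol, as Angptl4, Lpl, Cd36, Pdk4, Cpt1a, Cpt1b, Ucp3, Plin2 and Fabp3, out of 56748 genes in the count table, and each symbol matched 1 gene. RNAseq was performed on ACMs treated with vehicle (0.1% BSA), mouse oncostatin M (OSM) or human IL-6 for 16 h, with both cytokines at 10 ng/mL. OSM and IL-6 are cytokines that signal through the shared receptor subunit gp130. The myocytes came from hearts of WT mice 8 to 10 weeks old, and RNA samples were pooled before library preparation, so that each condition was 1 library with no replicate. In all 3 conditions the medium was serum-free and held insulin-transferrin-selenium, CD lipid and 10 mM BDM (2,3-butanedione monoxime, an inhibitor of contraction), after plating for 3 to 4 h in 5% fetal bovine serum. The libraries therefore compare ACMs that were all supplied with lipid and insulin.

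PPARs are nuclear receptors that bind fatty acids and their derivatives, pair with a retinoid X receptor (RXR) and bind DNA at direct repeats of the hexamer AGGTCA. In the heart, which draws most of its energy from fatty acids, PPAR-alpha is known for keeping up the genes of fatty acid uptake, storage and oxidation, with PGC-1alpha as its coactivator. The 9 genes cover this route in order. Lpl encodes lipoprotein lipase, which frees fatty acids from circulating triglyceride, and Angptl4 a secreted inhibitor of that enzyme. Cd36 encodes a fatty acid translocase of the cell surface and Fabp3 the cytosolic fatty acid binding protein of heart. Plin2 encodes a coat protein of lipid droplets, Cpt1a and Cpt1b the carnitine palmitoyltransferases that commit fatty acids to mitochondrial oxidation, Pdk4 a kinase that shuts off pyruvate dehydrogenase, and Ucp3 an uncoupling protein of mitochondria.

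The RefSeq promoter table (build GRCm38.p6) held 6 of the 9 genes, namely Cd36, Pdk4, Cpt1a, Ucp3, Plin2 and Fabp3, each with 250 bases before and 50 after the annotated start. On both strands, these windows were searched for the PPAR repeat, written as a pair of AGGTCA copies in direct order with any 1 base between them, for the single hexamer AGGTCA that it contains, for the strict STAT3 site TTCCNGGAA and for the broader STAT site TTCNNNGAA that contains the strict one. The repeat was in 0 of the 6 windows and in 13 of all 32851 promoters (0.0396%). The single hexamer was in Cd36, Cpt1a, Ucp3 and Plin2, and in 16.3% of all promoters. TTCCNGGAA was in 0 of the 6 windows (1.15% of all promoters) and TTCNNNGAA only in that of Ucp3 (8.30% of all promoters). The 250 bases before the start are printed for Plin2, whose level was more than 2-fold higher with OSM, for Cpt1a, whose level was more than 2-fold lower, and for Ucp3, which had matches to both the hexamer and the STAT site. Capitals mark AGGTCA or its reverse complement TGACCT, and in Ucp3 also the match to TTCNNNGAA.
Plin2, chr4:86670060-86670309, minus strand: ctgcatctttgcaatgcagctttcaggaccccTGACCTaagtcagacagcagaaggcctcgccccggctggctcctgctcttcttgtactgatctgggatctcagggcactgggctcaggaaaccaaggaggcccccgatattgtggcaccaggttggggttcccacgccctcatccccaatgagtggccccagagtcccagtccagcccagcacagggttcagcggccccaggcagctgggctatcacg
Cpt1a, chr19:3323051-3323300, plus strand: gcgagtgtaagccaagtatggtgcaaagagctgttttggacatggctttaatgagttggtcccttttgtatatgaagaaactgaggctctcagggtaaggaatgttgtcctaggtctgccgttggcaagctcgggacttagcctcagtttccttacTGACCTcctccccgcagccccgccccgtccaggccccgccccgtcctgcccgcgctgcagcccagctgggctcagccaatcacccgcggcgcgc
Ucp3, chr7:100472741-100472990, plus strand: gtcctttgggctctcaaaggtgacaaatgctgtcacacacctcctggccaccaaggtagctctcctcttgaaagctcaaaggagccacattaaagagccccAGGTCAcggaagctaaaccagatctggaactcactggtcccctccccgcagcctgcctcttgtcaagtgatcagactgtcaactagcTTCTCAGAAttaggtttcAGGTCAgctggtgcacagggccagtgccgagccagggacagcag
Both Plin2 and Cpt1a, whose counts differed with OSM in opposite directions, carried 1 hexamer in the complementary orientation, and Ucp3 carried 2 in the forward orientation. A match is a description of these letters. Inexact copies of a motif and sites outside the window were not searched. Absence of a match therefore does not show absence of a site.

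In depth, the libraries held 24939980 (vehicle), 26362446 (IL-6) and 30773001 (OSM) counts assigned to genes. At these depths 3 counts, used as the floor, correspond to 0.0975 to 0.120 CPM. Levels are given as fpkm, in which the authors' counts are divided by gene length and by 1 number per library (vehicle 25296726, IL-6 27098375, OSM 29867031, which differ from the totals), with the 95% Poisson interval of the count. Differences are log2 ratios of counts scaled with edgeR's TMM factors, each with a 95% Clopper-Pearson interval for its counts, and a gene was called higher or lower where the whole interval lay beyond 2-fold. Intervals cover counting error only, because each condition was 1 library, and no difference here has a replicate check. Amplified reads that carry no molecular identifier cannot be counted as separate molecules, so the intervals may be too narrow even for counting error.

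With OSM against vehicle, Angptl4 and Plin2 were called higher and Cpt1a was called lower, while the other 6 members were not called. The interval of the poorly counted Cpt1b, from -1.13 to 0.37, reached beyond 2-fold at its lower end. Among all 15537 genes compared, 575 were higher (3.70%) and 849 were lower (5.46%). With IL-6 against vehicle 0 of the 9 members were called in either direction, where 1.77% of 15472 genes were higher and 1.74% were lower. With OSM against IL-6, Angptl4 and Plin2 were again higher and 0 members were lower, where 4.24% of 15544 genes were higher and 5.44% were lower. The median log2 fold change of the 9 members was -0.11 with OSM against vehicle, with 3 members above 0 and 6 below, and the median over all genes compared was -0.0014. It was -0.08 with IL-6 against vehicle (all genes -0.0019) and -0.06 with OSM against IL-6 (all genes 0.0022). These comparisons share libraries in pairs, so that the second set of OSM values is not independent of the first.

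**Figure D1:**
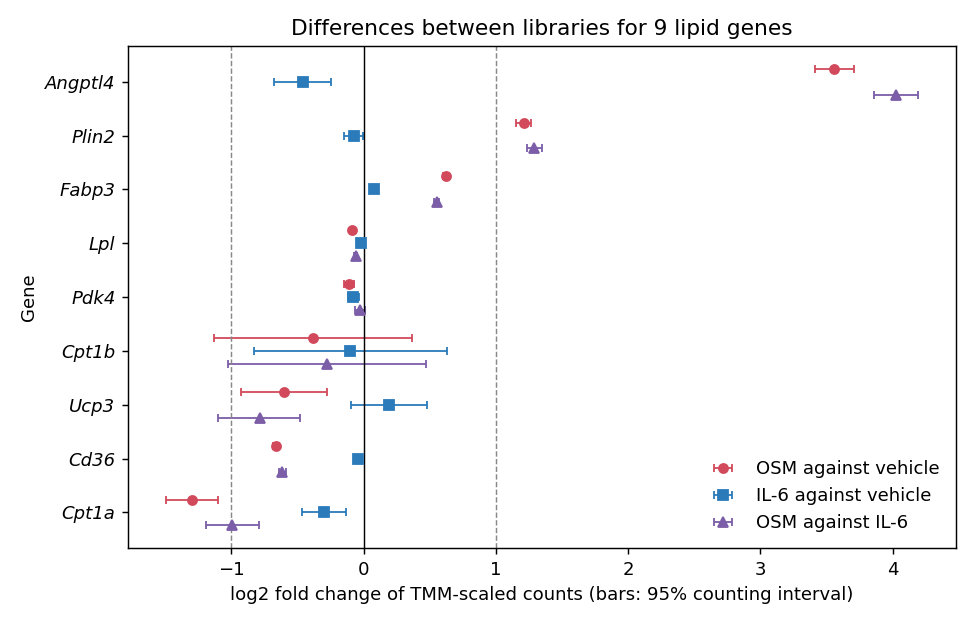
Log2 fold change of TMM-scaled counts (x axis) for the 9 members (y axis) in the 3 pairs of libraries, with bars for the 95% counting interval and dashed lines at 2-fold. Angptl4 lies far to the right of the others in both comparisons with the OSM library (3.56 and 4.02) and to the left of 0 with IL-6 (-0.46).

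Angptl4 (ENSMUSG00000002289) spans 33992724 to 34000804 of chromosome 17 (GRCm39, minus strand, 7 exons in the canonical transcript). It had 411 counts with vehicle, 320 with IL-6 and 5741 with OSM. Its level was 4.59 fpkm (4.16 to 5.05) with vehicle, 3.34 fpkm (2.98 to 3.72) with IL-6 and 54.3 fpkm (52.9 to 55.7) with OSM. The OSM library thus stood alone at the high end, and the intervals of the vehicle and IL-6 libraries did not overlap either. With OSM against vehicle the log2 fold change was 3.56 (3.41 to 3.70), or 11.8-fold. In order of log2 fold change, Angptl4 was 27th from the highest among the 9445 protein-coding genes averaging 100 counts or more in the pair. By level, it moved from rank 5709 with vehicle to rank 859 with OSM among the protein-coding genes. With OSM against IL-6 the difference was larger, 4.02 (3.86 to 4.19), because the IL-6 value was the lowest of the 3. That IL-6 value lay 0.46 log2 units under vehicle, with an upper bound of -0.25, inside the 2-fold rule. The call of Angptl4 held in both OSM comparisons under each of the 12 alternative settings tried, where its log2 fold change against vehicle ran from 3.40 to 3.59. No copy of its transcript at 97% identity was found in other annotated transcripts (0 bases).

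Lpl (ENSMUSG00000015568; chromosome 8, 69333143 to 69360100, plus strand, 10 exons), the target of the ANGPTL4 protein, was among the best counted genes of all libraries. Its counts were 130109 with vehicle, 137567 with IL-6 and 145699 with OSM, which is 0.522%, 0.522% and 0.473% of each library. The level was 491 fpkm with vehicle, 485 fpkm with IL-6 and 466 fpkm with OSM. These levels lay close together, and the log2 fold change with OSM was -0.08 (-0.10 to -0.07), or 1.06-fold lower. Lpl is one of the long genes, at 10478 bases in the authors' annotation, and the protein-coding genes of the longest eighth had a median of -0.56 in this comparison. After that median was subtracted Lpl was at 0.48, so that its sign depended on this choice. Within a library, where scaling between libraries plays no part, the Lpl level was 107 times that of Angptl4 with vehicle, 145 times with IL-6 and 8.58 times with OSM. The ratio of Angptl4 to Lpl was 0.00935 (0.00846 to 0.0103) with vehicle and 0.117 (0.114 to 0.120) with OSM, intervals that lie far apart. Differences along gene length still enter this ratio, because Lpl is in the longest eighth and Angptl4 in the third (median 0.15). After subtraction of these medians, OSM against vehicle was at 3.40 for Angptl4 and 0.48 for Lpl.

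Other proteins that act on lipoprotein lipase were taken from a list of 23 partners, of which 22 symbols were in the table and 14 had at least 10 counts over the vehicle and OSM libraries. The OSM library was higher for 2 of them and lower for 1, beside 3.70% and 5.46% of all genes. Their median log2 fold change was -0.21. The higher ones were Angptl4 itself and Sdc4, which encodes the heparan sulfate proteoglycan syndecan-4 of the cell surface. Sdc4 had 440 counts with vehicle, 416 with IL-6 and 1956 with OSM (log2 fold change 1.91, 1.76 to 2.06). The lower one was Hspg2, the gene of the matrix proteoglycan perlecan, with 2585 counts with vehicle, 2984 with IL-6 and 1273 with OSM (-1.27, -1.37 to -1.17). Hspg2 is also of the longest eighth, and its value after subtraction of that median was -0.71, within 2-fold. Sel1l, which encodes an adaptor needed for lipase maturation in the endoplasmic reticulum, and Vldlr, a lipoprotein receptor, had the highest levels of the list with vehicle. Their log2 fold changes were -0.74 and -0.94, and after subtraction of the length medians -0.465 and -0.378. Gpihbp1, the endothelial anchor of the lipase, had 3 counts with vehicle, 7 with IL-6 and 0 with OSM and was not compared between vehicle and OSM.

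Within the ANGPTL family of 7 listed genes, 5 were compared and Angptl4 was the one called (median 0.21). Angptl2, which encodes a secreted protein linked to inflammation, had 854 counts with vehicle, 977 with IL-6 and 537 with OSM (log2 fold change -0.92, -1.08 to -0.76). Angptl6 had the highest level of the family with vehicle and IL-6, 13.8 and 15.2 fpkm, and had 16.1 fpkm with OSM (0.21, 0.05 to 0.37). With OSM, Angptl4 stood above Angptl6 by level. Angptl1 had 6 counts with vehicle and 11 with OSM, Angptl7 had 1 and 0, and Angptl8 had 0 in every library. Counts this low leave wide intervals, as for Angptl1 from -0.93 to 2.35.

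**Figure D2:**
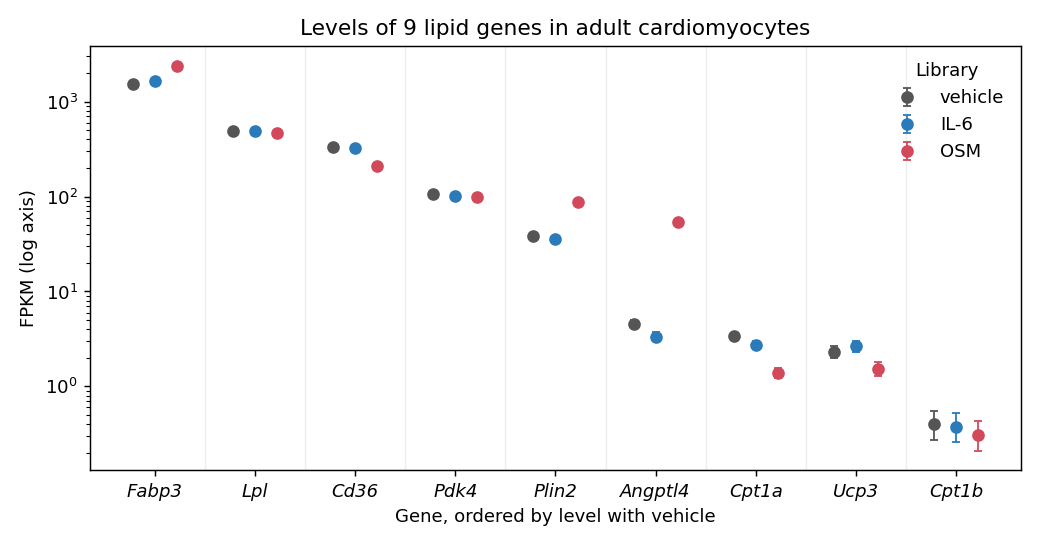
Level of the 9 members in each library in fpkm (y axis, log scale), ordered from the highest to the lowest level with vehicle (x axis), with bars for the 95% Poisson interval of the count. The OSM points of Angptl4, Plin2 and Fabp3 sit above the vehicle and IL-6 points, and those of Cd36, Cpt1a and Ucp3 sit below them. Lpl and Pdk4 are nearly level, and the intervals of Cpt1b overlap.

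The members covered a wide range of levels. With vehicle the order was Fabp3, Lpl, Cd36, Pdk4, Plin2, Angptl4, Cpt1a, Ucp3 and Cpt1b, from 1544 fpkm down to 0.399 fpkm, and no neighbours in this order had overlapping counting intervals. With IL-6 the order was the same, but the intervals of Angptl4 and Cpt1a overlapped, as did those of Cpt1a and Ucp3. With OSM, Ucp3 stood above Cpt1a with overlapping intervals, and Angptl4 was 35.3 times the next level below it, where it was 1.35 times with vehicle. Gene length in the authors' annotation exceeds the canonical transcript 2.55 times for Lpl and 1.71 times for Plin2, which lowers their fpkm. Per kilobase of canonical transcript, a setting chosen after the values had been seen, Lpl stood nearer to Fabp3, and with OSM Plin2 (147) stood above Pdk4 (90.3) in counts divided by that length and by the library's total. By summed fpkm the 9 genes came to 2523 with vehicle, 2583 with IL-6 and 3316 with OSM, mostly through Fabp3. Their share of all counts was 0.828%, 0.833% and 0.823%.

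Cd36 and Fabp3 act in sequence in uptake, and in the OSM library their values differed from vehicle in opposite directions. Cd36 (ENSMUSG00000002944; chromosome 5, 17986688 to 18093799, minus strand, 15 exons) had 30126 counts with vehicle, 31335 with IL-6 and 22613 with OSM, or 332, 322 and 211 fpkm. OSM was the low library, with a log2 fold change of -0.66 (-0.69 to -0.64), 1.58-fold lower, while the IL-6 value was -0.04 (-0.07 to -0.02). Fabp3 (ENSMUSG00000028773; chromosome 4, 130202388 to 130209256, plus strand, 4 exons) had 32155, 36341 and 58836 counts in the same order, or 1544, 1629 and 2394 fpkm. Here OSM was the high library, with a log2 fold change of 0.62 (0.60 to 0.64), 1.54-fold higher. The ratio of Cd36 to Fabp3 within a library was 0.215 (0.211 to 0.218) with vehicle, 0.198 (0.195 to 0.201) with IL-6 and 0.0881 (0.0868 to 0.0895) with OSM. Neither gene passed 2-fold. Fabp3 is the shortest member, at 823 bases, and the shortest eighth of the protein-coding genes had a median of 0.47, so that 0.16 was left for Fabp3 after subtraction. Cd36 lay in the third eighth (median 0.15) and its value after subtraction was -0.82. The ratio of Cd36 to Fabp3 therefore also holds differences along gene length.

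For Fabp3 the counts also depend on how reads were assigned. Copies at 97% identity in other annotated transcripts covered 87.5% of its canonical transcript, in the pseudogene Fabp3-ps1 and in the opposite-strand genes Zcchc17 and Gm10570, whose exons share bases with those of Fabp3. Zcchc17 had 900, 1063 and 1324 counts with vehicle, IL-6 and OSM, and Gm10570 had 22, 34 and 22, far below the counts of Fabp3. The sources used here did not give whether the counting used the strand.

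In the wider list of fatty acid uptake and activation, 13 of 19 genes were compared (median 0.34, and 0.28 after subtraction of the length medians). With OSM 1 was higher and 0 were lower, beside 3.70% and 5.46% of all genes. The higher gene was Acsl5, an acyl-CoA synthetase that activates fatty acids, with 64 counts with vehicle, 88 with IL-6 and 383 with OSM. Its log2 fold change was 2.33 (1.95 to 2.74), at levels of 0.520, 0.668 and 2.64 fpkm. Acsl1, the main synthetase of heart, was far better counted, with 48.5, 47.2 and 27.4 fpkm. Its log2 fold change was -0.83 (-0.87 to -0.79), within 2-fold. Acsl1 is of the longest eighth, and -0.27 was left after subtraction of that median. Of the 7 fatty acid binding proteins listed, Fabp3, Fabp4 and Fabp5 had counts and Fabp1, Fabp2, Fabp6 and Fabp7 had 0 in each library. Fabp4, the form of adipocytes and capillary endothelium, had 125 counts with vehicle, 124 with IL-6 and 199 with OSM (0.42, 0.09 to 0.76). Fabp5 had 3, 11 and 18 counts, a log2 fold change of 2.34 with an interval from 0.56 to 4.74, too wide for a call.

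Plin2 (ENSMUSG00000028494; chromosome 4, 86566623 to 86588297, minus strand, 8 exons) had 3379 counts with vehicle, 3436 with IL-6 and 9288 with OSM, or 38.0, 36.1 and 88.6 fpkm. OSM was the high library and the others were close together, with a log2 fold change of 1.21 (1.15 to 1.27), 2.32-fold higher, for OSM against vehicle and -0.08 (-0.14 to -0.01) for IL-6 against vehicle. Against IL-6 the OSM value was 1.29 (1.24 to 1.35). Plin2 ranked 256th from the highest of those 9445 protein-coding genes. When a biological coefficient of variation of 0.2 between cultures was assumed, its interval no longer lay beyond 2-fold. Within a library, Angptl4 stood at 0.121 times the Plin2 level with vehicle (0.109 to 0.134), 0.0924 times with IL-6 (0.0821 to 0.104) and 0.613 times with OSM (0.593 to 0.634).

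Among the 5 perilipins Plin2 was the one called, and the median of the 4 compared was -0.14. Plin5, the perilipin that ties droplets to mitochondria in oxidative tissue, had 793 counts with vehicle and 814 with OSM (-0.21, -0.35 to -0.07). Plin4 was at -0.58 (-0.69 to -0.46) and Plin3 at -0.07 (-0.15 to 0.01). Plin1, the perilipin of adipocytes, had 0 counts with vehicle, 0 with IL-6 and 2 with OSM. Over the list of lipid droplets and lipolysis, 19 of 22 genes were compared, with a median of 0.12. Plin2 was called higher and 0 were lower, beside 3.70% and 5.46% of all genes. Pnpla2, which encodes adipose triglyceride lipase, had 147, 146 and 160 fpkm with vehicle, IL-6 and OSM (0.12, 0.08 to 0.16). Dgat2, which makes triglyceride, had 82.8, 87.4 and 93.9 fpkm (0.17, 0.13 to 0.22).

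Both carnitine palmitoyltransferase genes were lowly counted. Cpt1a (ENSMUSG00000024900; chromosome 19, 3372334 to 3435733, plus strand, 19 exons), the form of liver and of immature heart, had 656 counts with vehicle, 571 with IL-6 and 317 with OSM. Its level was 3.39, 2.76 and 1.39 fpkm, so that the libraries were ordered vehicle, IL-6, OSM. With OSM against vehicle it was at -1.30 (-1.50 to -1.10), 2.46-fold lower, and against IL-6 at -0.99 (-1.19 to -0.79), which did not pass 2-fold. IL-6 against vehicle was at -0.30 (-0.46 to -0.14). Cpt1a is of the seventh length eighth, whose median was -0.28, and after subtraction it stood at -1.02 and was no longer called. The call also ended with an assumed coefficient of variation of 0.2.

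Cpt1b (ENSMUSG00000078937; chromosome 15, 89300608 to 89310066, minus strand, 19 exons), known as the main form of adult heart and muscle, had 34, 34 and 31 counts with vehicle, IL-6 and OSM, or 0.399, 0.372 and 0.308 fpkm. It was the lowest member in every library, and its intervals were the widest of the 9, with a log2 fold change of -0.38 (-1.13 to 0.37) for OSM against vehicle. Cpt1b shares 2744 exonic bases, 68.5% of its annotated exonic bases, with the same-strand read-through gene Gm44502, which had 0 counts in every library. Copies in Gm44502 covered 89.9% of the canonical transcript of Cpt1b, and 1264 exonic bases were not shared. The sources used here did not give how reads that fall on more than 1 gene were counted, so the low level of Cpt1b and the ratio of Cpt1a to Cpt1b (8.51 with vehicle, 4.51 with OSM) cannot be read as the level of the transcript.

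The list of the carnitine shuttle and malonyl-CoA control had 10 compared genes (median -0.16). With OSM 0 were higher and 2, Cpt1a among them, were lower, beside 3.70% and 5.46% of all genes. The second lower gene was Acaca, an acetyl-CoA carboxylase that makes malonyl-CoA, the inhibitor of the palmitoyltransferases. It had 952 counts with vehicle, 1007 with IL-6 and 467 with OSM (-1.28, -1.44 to -1.11), and is of the longest eighth, with -0.71 left after subtraction. Cpt2, which acts inside the mitochondrion, had 78.4, 76.6 and 69.1 fpkm and Crat, carnitine acetyltransferase, had 89.6, 86.0 and 82.2 fpkm. Their log2 fold changes of -0.19 and -0.13 were small beside that of Cpt1a.

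Pdk4 and Ucp3, which are raised in heart and muscle by fasting, stayed within 2-fold. Pdk4 (ENSMUSG00000019577; chromosome 6, 5483351 to 5496309, minus strand, 11 exons) had 9506 counts with vehicle, 9656 with IL-6 and 10449 with OSM, or 107, 102 and 99.6 fpkm. The levels were nearly equal, with a log2 fold change of -0.11 (-0.15 to -0.07) for OSM against vehicle. In the list of pyruvate dehydrogenase kinases and phosphatases 0 of 6 genes were called, and the median was -0.14. Pdk2 stood above Pdk4 by level in each library (115, 123 and 106 fpkm) and was at -0.13 (-0.17 to -0.09). Pdk1 was at -0.38 (-0.43 to -0.34) and Pdk3 at -0.33 (-0.76 to 0.11), while the phosphatases Pdp1 and Pdp2, which turn the enzyme back on, were at -0.15 (-0.28 to -0.02) and 0.46 (0.19 to 0.73).

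Ucp3 (ENSMUSG00000032942; chromosome 7, 100122197 to 100135639, plus strand, 7 exons) had 184 counts with vehicle, 225 with IL-6 and 144 with OSM, or 2.32, 2.65 and 1.54 fpkm. By level, IL-6 was the high library and OSM the low one. The log2 fold change was -0.60 (-0.93 to -0.28) with OSM and 0.19 (-0.10 to 0.48) with IL-6, the latter within counting error. Copies in Gm72028 covered 15.1% of its transcript, and the opposite-strand gene Gm10603, which lies in its span without sharing exonic bases, had 31, 2 and 11 counts. Of the 5 uncoupling proteins listed 4 were compared and 0 were called (median 0.14). Ucp2 had 261, 251 and 460 counts (0.57, 0.35 to 0.80) and stood above Ucp3 by level with OSM only. Slc25a14 and Slc25a27 were at 0.55 (0.09 to 1.01) and -0.26 (-0.71 to 0.18), and Ucp1, the brown fat form, had 0 in every library.

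The receptors that act on these genes were also measured. All 6 PPAR and RXR genes were compared, with a median of -0.09. With OSM 0 were higher and 1 was lower, beside 3.70% and 5.46% of all genes. The lower one was Ppara, the receptor best known for cardiac fatty acid oxidation, with 300 counts with vehicle, 307 with IL-6 and 103 with OSM. Its level was 3.09, 2.95 and 0.899 fpkm, a log2 fold change of -1.79 (-2.13 to -1.46), 3.46-fold lower. Ppard, which is broadly expressed and acts on many of the same genes, had 1551, 1810 and 2900 counts, or 8.16, 8.89 and 12.9 fpkm (0.66, 0.57 to 0.75). Thus Ppard had more counts per length than Ppara in each library, and their difference was widest with OSM. Pparg, the adipogenic form, had 211 counts with vehicle and 256 with OSM (0.03, -0.24 to 0.30). Rxra was at -0.51, Rxrb at 0.39 and Rxrg at -0.22, each within 2-fold.

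Of the PPAR coregulators, 16 were compared. With OSM 0 were called higher and 6 were called lower, beside 3.70% and 5.46% of all genes. By sign, 15 of the 16 were below 0. The median was -0.77, against -0.0014 over all genes, and -0.42 after subtraction of the length medians. Esrrg, an estrogen-related receptor of oxidative metabolism, had the largest difference, with 1278 counts with vehicle, 1402 with IL-6 and 306 with OSM (-2.31, -2.50 to -2.13). Ppargc1a, which encodes PGC-1alpha, had 1035, 937 and 351 counts (-1.81, -1.99 to -1.63). After subtraction of the length median they were at -2.18 and -1.67. Ncoa2 was at -1.62 and Ncor1, a corepressor, at -1.41, and after subtraction these were -1.05 and -0.85. With the length medians subtracted, 2 of the 16 (Esrrg and Ppargc1a) kept a whole interval beyond 2-fold, so the count of 6 depended on this choice. Esrra, the highest of the list by fpkm with vehicle, was at -0.05 (-0.12 to 0.02). Lpin1, a lipin that also acts with PGC-1alpha, was at -1.01 (-1.09 to -0.94), and at -0.45 after subtraction. With IL-6 against vehicle 0 coregulators and 0 receptors were called.

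**Figure D3:**
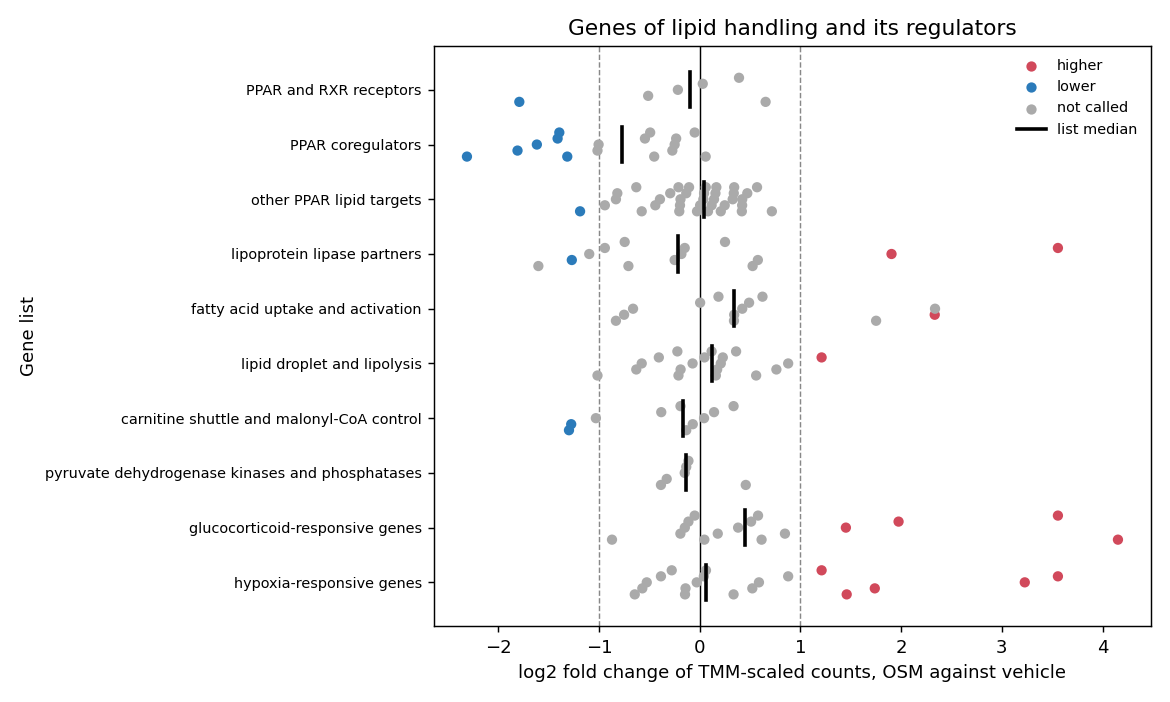
Log2 fold change with OSM against vehicle (x axis) of each compared gene in 10 lists (y axis), with called genes in red or blue, a bar at each list's median and dashed lines at 2-fold. The coregulator list sits left of 0 (median -0.77) and the other PPAR targets centre on 0 (median 0.04). The genes far to the right belong to the lipase, uptake, glucocorticoid and hypoxia lists. A gene of several lists is drawn in each, as Angptl4 (3.56) is in the lipase, glucocorticoid and hypoxia lists.

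A list of 41 other PPAR target genes of lipid metabolism, most of them enzymes of oxidation, had 36 compared genes, of which 0 were higher with OSM and 1 was lower (median 0.04, with 20 above 0 and 16 below). The lower gene was Acot2, a mitochondrial acyl-CoA thioesterase, with 4341 counts with vehicle, 4573 with IL-6 and 2264 with OSM (-1.19, -1.26 to -1.11). The highest by fpkm with vehicle were Acaa2, the thiolase of mitochondrial oxidation, with 519, 533 and 660 fpkm (0.34, 0.31 to 0.37), and Ech1, an isomerase of unsaturated fatty acid oxidation, with 516, 534 and 696 fpkm (0.42, 0.40 to 0.44). The shares called in this list, 0 of 36 higher and 1 of 36 lower, stood beside background shares of 3.70% and 5.46%.

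Angptl4 is also known to respond to glucocorticoids and to hypoxia, and genes of these responses were listed for comparison. Of 16 glucocorticoid-responsive genes, Angptl4 and Pdk4 among them, 4 were higher with OSM and 0 were lower (median 0.45, and 0.28 after subtraction of the length medians), where 3.70% of all genes were higher. Beside Angptl4, the higher ones were Cebpd with 61 counts with vehicle, 112 with IL-6 and 1288 with OSM (4.15, 3.78 to 4.55), and the metallothionein genes Mt2 (1.98, 1.74 to 2.21) and Mt1 (1.45, 1.42 to 1.48). Mt1 is of the shortest eighth and stood at 0.99 after subtraction, no longer beyond 2-fold. By sign, 11 of the 16 were above 0 and 5 were below. Not called were Fkbp5 (2.33 fpkm with vehicle, 2.42 with OSM), Tsc22d3 (7.99, 7.03), Zbtb16 (1.66, 1.51), Sgk1 (1.85, 1.80) and Klf9 (13.8, 7.59). Also not called were Ddit4 (11.7, 21.1), Cdkn1a (88.2, 136), Nfkbia (16.1, 23.1), Dusp1 (1.85, 2.78), Errfi1 (4.66, 6.10), Per1 (3.56, 4.055) and Pdk4 (107, 99.6). Of 19 hypoxia-responsive genes, 5 were higher and 0 were lower (median 0.06), beside 3.70% and 5.46% of all genes. The members Angptl4 and Plin2 were among these 5. Ndrg1 had 242, 292 and 2692 counts (3.23, 3.04 to 3.42), Pfkfb3, a driver of glycolysis, was at 1.74 (1.47 to 2.02) and Slc2a1, the glucose transporter GLUT1, at 1.46 (1.40 to 1.53). Egln1 and Egln3, which encode enzymes that mark hypoxia-inducible factor for destruction and had the highest fpkm of this list with vehicle, were at -0.15 and -0.14. These lists overlap with one another and with the 9 members, and their genes respond to several stimuli.

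Genes most like Angptl4 were sought among 10699 protein-coding genes with at least 100 counts over the 3 libraries, by the Euclidean distance in the log2 fold changes of OSM and of IL-6 against vehicle. The nearest was Klhl6, at a distance of 0.0561, with 39 counts with vehicle, 30 with IL-6 and 525 with OSM. The next were Ptgs2 (52, 34 and 798 counts, distance 0.286), which encodes cyclooxygenase-2, Tmem88b (85, 68 and 970, 0.294), S100a10 (82, 63 and 1412, 0.302) and Rnd1 (270, 251 and 3350, 0.308). The likeness rests on 3 libraries that share the vehicle values, and Klhl6, Ptgs2, Tmem88b and S100a10 had under 100 counts with vehicle.

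**Figure D4:**
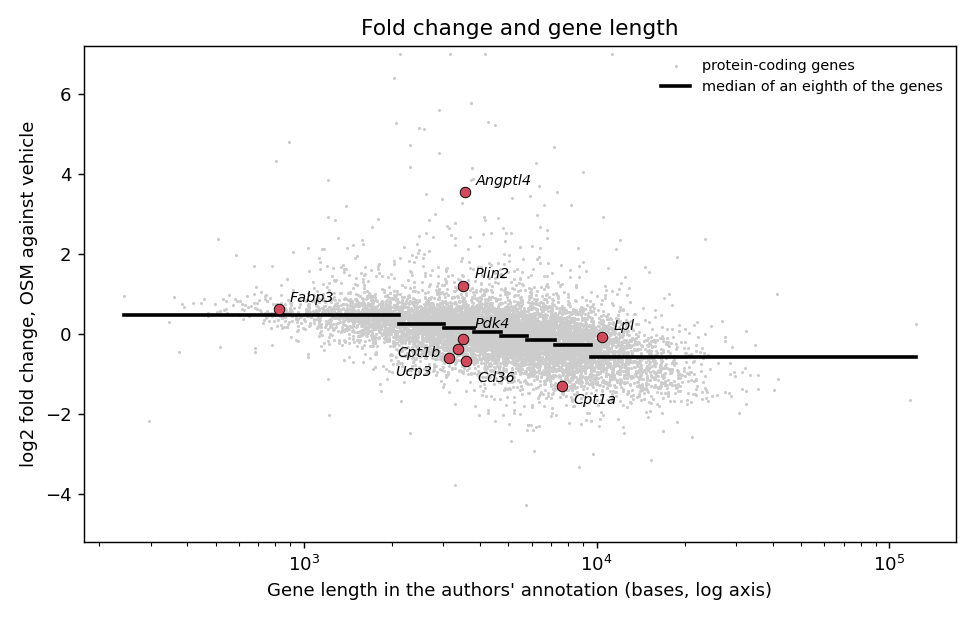
Log2 fold change with OSM against vehicle (y axis) against gene length in bases (x axis, log scale) for the protein-coding genes averaging 100 counts or more, in grey, with the 9 members in red and the median of each eighth of the genes by length as a black line. Values above 7 are drawn at 7. The median falls from 0.47 in the shortest eighth to -0.56 in the longest, Fabp3 lies near the line and Angptl4, Plin2 and Lpl lie above it.

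The OSM library differed from the others along gene length. The medians of the eighths fell from 0.47 to -0.56 with OSM against vehicle and from 0.46 to -0.53 with OSM against IL-6, but only from 0.0171 to -0.0276 with IL-6 against vehicle. Of the members, Angptl4, Cd36, Pdk4, Cpt1b, Ucp3 and Plin2 were in the third eighth (median 0.15), and the same median was subtracted from these 6. After subtraction Angptl4 was at 3.40 and Plin2 at 1.06. The part of this trend in the values of Fabp3, Lpl and Cpt1a was not tested.

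Markers of the labelled cell type were abundant, with all 10 cardiomyocyte markers counted in each library and a summed level of 10400, 10600 and 12500 fpkm with vehicle, IL-6 and OSM. Of these 10, 0 were higher and 2, the very long genes Ryr2 and Ttn, were lower with OSM. Adipocytes also make Angptl4, Lpl, Cd36 and Plin2, so their markers were examined. Adipoq, Lep, Cfd, Retn, Cidec and Adrb3 had 0 counts in every library, Plin1 had 2 counts with OSM, and Thrsp made up the rest of a summed level of 4.71, 5.83 and 6.39 fpkm. Endothelial markers summed to 7.60, 7.55 and 8.28 fpkm, fibroblast markers to 0.86, 0.77 and 1.08 fpkm, and smooth muscle and pericyte markers to 13.4, 13.6 and 15.9 fpkm. In each of these lists 0 genes were called with OSM against vehicle. Between OSM and IL-6, the fibroblast marker Col1a2 was called lower, with 41 counts with IL-6 and 6 with OSM (-2.915, -4.44 to -1.67). Macrophage markers summed to 14.0, 14.9 and 40.2 fpkm, where Cd68, a lysosomal protein of many cells, had 382 counts with vehicle, 448 with IL-6 and 1419 with OSM, while Ptprc, C1qa and C1qb had 0 in all libraries. Of 6 macrophage markers compared between OSM and vehicle, Cd68 was called higher and 0 were lower, with 4 above 0 and a median of 0.96. Between OSM and IL-6, Lyz2 was also called higher, with 13 counts with vehicle, 4 with IL-6 and 31 with OSM (2.81, 1.31 to 4.78). In bulk RNA, fewer cells of a type and less RNA per cell cannot be told apart. The part of other cells in the member values was not tested.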

How the data were processed

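Poly(A) RNA of pooled ACM samples was sequenced as 1 library per condition, and groups were taken from the labels. The authors deposited raw counts for each gene as whole numbers and the FPKM made from them. The submitters' processing notes name fastp, HISAT2 2.2.1, featureCounts 2.0.6, edgeR 4.0.16 and the mouse build mm39 (GRCm39), while the paper's methods name other versions of featureCounts and edgeR. Strand use and the handling of reads on several genes were not given in the sources used here. Every sample column was matched (0 left over).

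From the counts, TMM factors (edgeR 4.0.16, R 4.3.3) were computed per pair of libraries from genes with 10 or more counts in the pair together. Log2 ratios were given 95% Clopper-Pearson intervals (scipy 1.17.1), with calls beyond 2-fold. With 1 library per condition no test across replicates was made and no P-value is given, so values compare libraries, not conditions. Exons and overlaps are from GENCODE M39, which held 56017 of the 56748 gene identifiers. The 12 alternatives were other scalings (DESeq2 1.42.0 size factors among them), count minimums, folds, assumed variation and removal of the length medians.

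The genes named are the 9 members, the counted genes of families of 8 or fewer, up to 4 called genes in each direction and the 2 of highest level in longer lists, the 5 genes most like Angptl4, and overlapping genes. Genes chosen after their values were seen are Gpihbp1, Acsl1 and the uncalled glucocorticoid-responsive genes other than Pdk4, beside markers without counts. Not every gene that this rule names is reported here by its values. The members and the 20 lists were chosen with earlier results of these data known.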

Additional observations from a re-analysis of the deposited data

How the results depend on the processing

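With OSM against vehicle, the number of members called higher was 2 (Angptl4 and Plin2) and became 1 (Angptl4) where a biological coefficient of variation of 0.2 or 0.4 was assumed and with a 4-fold rule, and 3 (with Fabp3) with a 1.5-fold rule. The number called lower was 1 (Cpt1a) and became 0 under the same 3 settings and with the length medians subtracted, and 2 (Cd36 and Cpt1a) with a 1.5-fold rule. With OSM against IL-6, the 2 higher members likewise became 1 (Angptl4) at 0.2, 0.4 and 4-fold, and the 0 lower members became 2 (Cd36 and Cpt1a) at 1.5-fold. Over all genes, the number higher with OSM against vehicle ran from 84 (coefficient 0.4) to 1559 (point estimate beyond 2-fold) and the number lower from 88 to 2049. With IL-6 against vehicle these ran from 12 to 1040 and from 7 to 1023, the lowest at a minimum of 100 counts, and with OSM against IL-6 from 109 to 1555 and from 80 to 1986. No member's called difference changed sign. The log2 fold change of a member stayed within its counting interval in 288 cases and left it in 33. That of Lpl ran from -0.14 to 0.48. Assumed variation, fold rules and the point estimate leave the log2 fold change as it was. Those cases among the 288 could not have left the interval. Cpt1b could not be compared at a minimum of 100 counts.

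No paired analysis was possible because each condition has 1 library. With no replicates, leaving out a library was not possible either. Variation between cultures, pools and library preparations is not measured here, and it bears most on Plin2, Cpt1a, Cd36 and Fabp3, whose differences are near 2-fold or under it.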
